A study of Arabidopsis thaliana with 24 samples.

Results

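The comparison asked which effects of the rpt2-3a mutation on gene expression depended on the organ and which were common to roots and rosettes, in Arabidopsis plants kept on full sulfur supply. Its members were the 12 arrays at normal supply among the 24 arrays of the series, with 3 arrays each from rpt2-3a roots, Col-0 roots, rpt2-3a rosettes and Col-0 rosettes. Col-0 is the reference accession, and rpt2-3a is labelled as a mutant. Plants of both genotypes shared hydroponic culture in short days (8 h light, 16 h dark) for 5 weeks on complete medium and then stayed on that medium until harvest. The other 12 arrays came from plants of the same genotypes and organs that spent 5 days on sulfur-deficient medium, and they served as arrays in which the same contrast could be measured again. By the submitters' design text the 3 arrays in each group are biological replicates, and the labels do not say how many plants each array pooled. Both genotypes are 1 line each, so an effect of the named mutation and any other difference between the lines cannot be told apart. Each array gave a log2 expression value for 28583 features, of which 16746 carry exactly 1 gene.

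RPT2 is an ATPase subunit at the base of the 19S regulatory particle, the cap of the 26S proteasome that unfolds ubiquitinated proteins and feeds them into the proteolytic core. In Arabidopsis RPT2 is encoded by a pair of genes, and loss of RPT2a is known for enlarged leaves and other organs with larger cells. Proteasomes also dispose of short-lived transcription factors, among them the group VII ethylene response factors, which in air are degraded through the N-degron pathway and which under low oxygen switch on the hypoxia core genes. No named feature used here carries either of these genes, so the genotype labels were not checked by the mutated gene.

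The organ labels were borne out by marker genes in all 12 arrays. RCA, the activase of Rubisco, lay between 3.61 and 4.55 in roots and between 10.82 and 11.12 in rosettes. EXPA7, a root hair expansin, lay between 7.31 and 7.89 in roots and between 1.81 and 2.36 in rosettes. The photosynthesis genes LHCB4.1, PSAE-1 and ATPC1 and the root genes EXPA18 and AT4G26010, a peroxidase, also separated the organs without overlap. Among the root arrays, replicate 2 of rpt2-3a carried more photosynthesis transcript than the others: the mean over the 10 measured photosynthesis genes was 4.05 there, against 3.36 and 3.37 in the other rpt2-3a root arrays and 3.36 to 3.71 in Col-0 roots. PSAE-1, a photosystem I subunit, read 4.74 in that array and at most 2.78 in the other root arrays. Of the 10 genes 5 were highest in that array among the 6 root arrays. Its part in the results was not tested, and counts without that array are given below. In whole organs fewer cells of a type and less RNA per cell cannot be told apart.

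In roots, 139 features differed between rpt2-3a and Col-0 by limma (adjusted p under 0.05, 0.486% of all features), 101 higher (0.353%) and 38 lower (0.133%) in rpt2-3a. In rosettes 597 features passed (2.09%), 297 higher (1.04%) and 300 lower (1.05%). The same-sign overlap of these lists was small: 11 features passed in both organs in the same direction (0.0385% of all features), which is 7.91% of the root calls and 1.84% of the rosette calls. Another 3 features passed in both organs in opposite directions (0.0105%). A feature that passed in 1 organ and not in the other is not thereby organ dependent. The difference between the organs was therefore tested itself, as the root difference (rpt2-3a minus Col-0) minus the rosette difference.

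That organ difference passed for 129 features (0.451%), 82 of them positive (0.287%) and 47 negative (0.164%), with a median size of 1.20 and a range of sizes from 0.71 to 2.83 on the log2 scale. Of the 129, 63 carry exactly 1 gene. In the same fit 3204 features had an unadjusted p under 0.05. When each array was centred on its own median the split became 67 positive and 63 negative, and the rosette split became 357 higher and 234 lower, so the balance of directions depends on the centring. It also moved with single arrays: without Col-0 rosette replicate 3 the split was 56 positive and 63 negative for the organ difference and 296 higher and 175 lower in rosettes, and without rpt2-3a root replicate 1 the organ difference split 80 to 23. Without rpt2-3a root replicate 2, the array with more photosynthesis transcript, 58 features passed. The count also fell by over 1.5 times without rpt2-3a root replicate 3 (54), Col-0 root replicates 1, 2 and 3 (60, 63 and 59), rpt2-3a rosette replicate 2 (65), and Col-0 rosette replicates 1 and 2 (52 and 58). The root count fell to 70 and 67 without rpt2-3a root replicates 2 and 3 and to 67 and 92 without Col-0 root replicates 1 and 2. The rosette count fell to 358 and 254 without rpt2-3a rosette replicates 1 and 2 and to 200 without Col-0 rosette replicate 1.

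**Figure D1:**
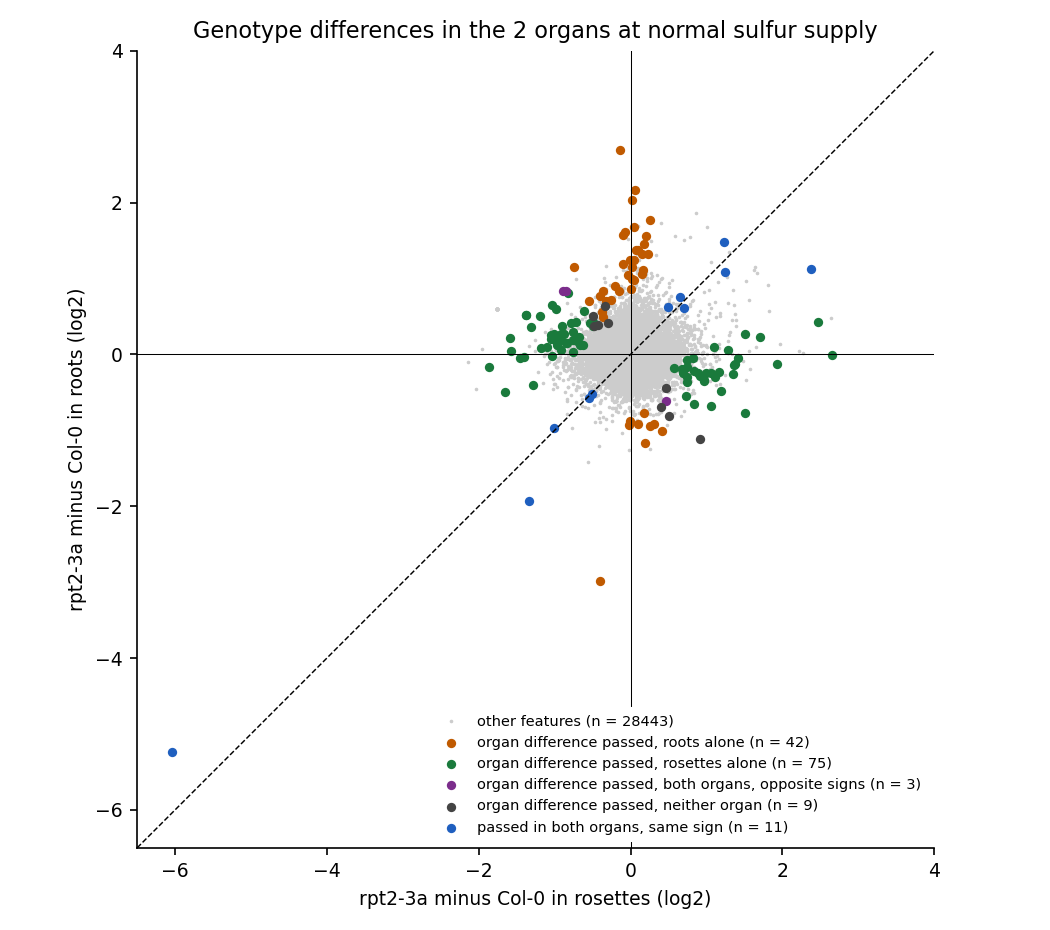
Genotype difference (rpt2-3a minus Col-0, log2) in roots (vertical axis) against rosettes (horizontal axis) for all 28583 features at normal sulfur supply, with the 129 features past the test of the organ difference coloured by the organ in which they passed and the 11 shared features in blue. The 42 features called in roots alone had median sizes of 1.09 in roots and 0.16 in rosettes. The 75 called in rosettes alone had median sizes of 0.25 in roots and 0.99 in rosettes. Some of these, such as NAI1 (0.81 in roots and -0.82 in rosettes), lie far from the horizontal axis. Most shared features lie near the dashed line of equal change.

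Most organ differences came with a call in 1 organ alone, which does not show that nothing changed in the other. Of the 129 features, 42 passed in roots alone, 75 in rosettes alone, 3 in both organs with opposite signs and 9 in neither organ singly, and 0 passed in both organs in the same direction. Among the 42 root features 33 were higher in rpt2-3a and 9 lower. Among the 75 rosette features 33 were higher and 42 lower. For 30 of the 42 root features both genotype means in rosettes lay under the median rosette value (4.09), and for 29 of the 75 rosette features both means in roots lay under the median root value (4.495). Over all features 13951 were that dim in rosettes and 14003 in roots. The table has no detection calls, so whether such features were detected in the dim organ is not known from it. Of all 129 features 98 had opposite signs in the organs, beside 14159 of all 28583 features, although the opposite change passed in both organs for only 3. Among the 75 rosette features 64 had opposite signs, and among the 42 root features 22. Choosing features by a large difference between the organs favours opposite signs, so these counts are no separate result.

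Most calls in a single organ could not be called organ dependent. Of the 125 features that passed in roots and not in rosettes, 42 (33.6%) also passed the organ difference. Of the 583 that passed in rosettes and not in roots, 75 (12.9%) did. The other 591 are neither shown to be particular to an organ nor shown to be shared. Of these 591, 384 had the same sign in both organs, made up of 67 of 83 root calls and 317 of 508 rosette calls. Over all root calls, those past the organ difference included, 70.5% had the same sign in rosettes, and over all rosette calls 56.8% had the same sign in roots, beside 50.5% of all features.

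The largest organ difference belonged to AT3G10040 (HRA1), a trihelix transcription factor that is induced by low oxygen and dampens the response to it. Its log2 values were 6.39, 7.12 and 7.05 in rpt2-3a roots, against 4.11, 4.16 and 4.21 in Col-0 roots. In rosettes it read 2.07, 2.52 and 2.54 in rpt2-3a and 2.49, 2.49 and 2.57 in Col-0. The root groups were far apart, with no overlap, while the rosette groups overlapped at a dim level. Over all features the genotypes did not overlap for 13.7% in roots and 17.5% in rosettes. The root difference was 6.47-fold (2.69 ± 0.18 SE on the log2 scale, limma adjusted p = 1.4e-05), the rosette difference -0.14 ± 0.18 (adjusted p = 0.79), and the organ difference 2.83 ± 0.25 (adjusted p = 0.001).

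Other hypoxia core genes rose in roots too. AT3G27220, a Kelch-repeat gene, read 7.11, 7.47 and 7.53 in rpt2-3a roots, against 5.84, 5.56 and 5.40 in Col-0 roots, and 4.55, 4.53 and 4.49 in rpt2-3a rosettes, against 4.19, 4.32 and 4.29 in Col-0 rosettes. The genotypes did not overlap in either organ, and the rise was 3.41-fold in roots (1.77 ± 0.13, limma adjusted p = 5.1e-05) and 0.26 ± 0.13 in rosettes, which did not pass (adjusted p = 0.43). AT5G10040 read 4.72, 4.75 and 5.14 in rpt2-3a roots, against 3.54, 3.58 and 3.51 in Col-0 roots, and its organ difference was 1.10 ± 0.19 (adjusted p = 0.025). AT5G66985 read 5.43, 5.59 and 5.66 in rpt2-3a roots, against 4.39, 4.77 and 4.37 in Col-0 roots, and its organ difference was 1.08 ± 0.18 (adjusted p = 0.022). Both were under the median value in rosettes, where AT5G10040 differed by 0.23 ± 0.13 and AT5G66985 by -0.03 ± 0.13.

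Of 45 listed hypoxia core genes 25 were measured, and 4 passed as higher in rpt2-3a roots, the same 4 that passed the organ difference (0.353% and 0.287% of all features passed in those directions). No member fell in roots, and in rosettes none rose and 1, AT5G42200, fell (-0.62 ± 0.11, limma adjusted p = 0.011). The list's median difference was 0.31 in roots and -0.01 in rosettes, and its median organ difference was 0.40, beside 0.01 over all features. The organ difference was above 0 for 20 of the 25. AT5G44730 (0.68 in roots, adjusted p = 0.053) and AT2G17850 (0.80, adjusted p = 0.06) lay just outside the threshold, whereas PDC2, a pyruvate decarboxylase gene of fermentation, stood at 0.36 in roots and 0.19 in rosettes. CML38, a calmodulin-like gene, stood at -0.23 in roots and 0.35 in rosettes. Of the 25 genes 15 were dim in rosettes. The 4 calls became 2 without rpt2-3a root replicate 3, without Col-0 root replicate 1 or 3, or without Col-0 rosette replicate 1 or 2, and 3 without rpt2-3a root replicate 2.

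**Figure D2:**
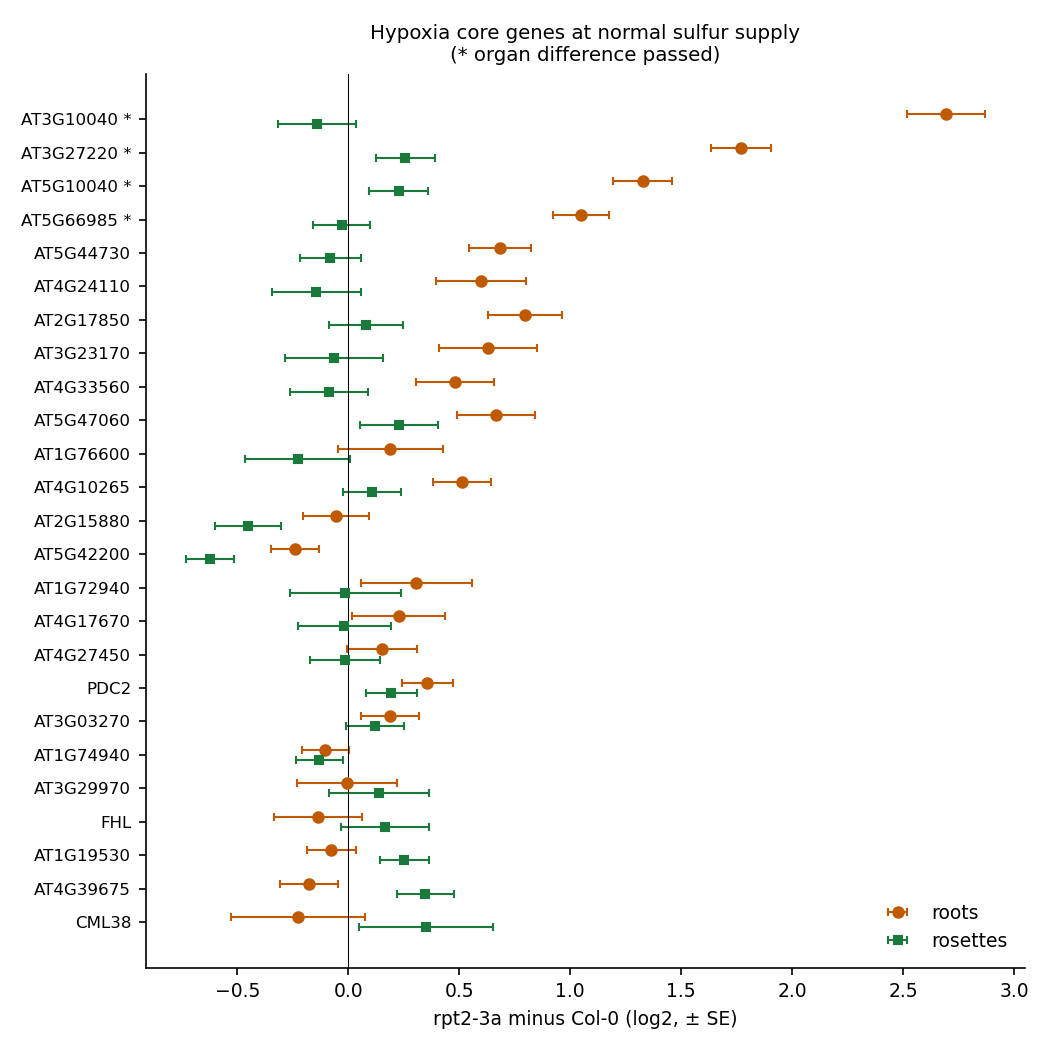
Difference between rpt2-3a and Col-0 (log2, points, with SE as bars) in roots and rosettes for the 25 measured hypoxia core genes, ordered by organ difference. The 4 genes marked with an asterisk passed the test of the organ difference, and their root values lie between 1.05 and 2.69.

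A further gene rose in roots alone among the largest positive organ differences. AT4G25410, a basic helix-loop-helix factor gene, read 4.94, 4.87 and 5.44 in rpt2-3a roots, against 3.71, 3.33 and 3.36 in Col-0 roots, and stayed between 1.81 and 1.94 in the 6 rosette arrays. It rose 3.07-fold in roots (1.62 ± 0.15, limma adjusted p = 0.0002), with an organ difference of 1.69 ± 0.21 (adjusted p = 0.0039). Among class III peroxidases, which build and loosen cell walls, AT1G49570 (1.05 ± 0.15, adjusted p = 0.0052) and AT1G14550 (1.00 ± 0.17, adjusted p = 0.022) rose in roots. They were 2 of 64 measured members, beside 0.353% of all features higher in rpt2-3a roots. Neither passed the organ difference (0.94, adjusted p = 0.081, and 0.78, adjusted p = 0.22). A different member rose in rosettes, 1 of 64, beside 1.04% of all features. The organ difference was above 0 for 20 of the 64, and the list's median was -0.13. In rosettes AT1G49570 stood at 2.20, 2.36 and 2.17 in rpt2-3a and 2.28, 2.00 and 2.12 in Col-0.

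Among genes lower in mutant roots the largest organ difference was that of AT5G15360. It read 3.88, 2.99 and 4.15 in rpt2-3a roots, against 6.43, 6.61 and 6.95 in Col-0 roots. In rosettes it read 3.51, 3.27 and 3.39 in rpt2-3a and 3.71, 3.78 and 3.89 in Col-0. The mutant roots thus stood near the level of the rosettes of both genotypes, and the genotypes did not overlap in either organ. The root difference was 7.94-fold (-2.99 ± 0.23, limma adjusted p = 5.5e-05), the rosette difference -0.40 ± 0.23 (adjusted p = 0.48), and the organ difference -2.59 ± 0.33 (adjusted p = 0.0041). AT3G46800, of the cysteine- and histidine-rich C1-domain family, fell by 1.01 ± 0.12 in roots (adjusted p = 0.0012) and stood at 0.42 ± 0.12 in rosettes (adjusted p = 0.099). AT2G17660 fell by 0.92 ± 0.16 in roots (adjusted p = 0.019), with an organ difference of -1.23 ± 0.22 (adjusted p = 0.033) that passed in 3 of 12 fits without 1 array. AT3G46800 was dim in rosettes, and AT2G17660 was dim in both organs, so its root fall was called at a dim level.

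In rosettes the largest rises among the named organ differences were those of AT3G48640 and AT3G22235, whose root changes did not pass. AT3G48640 read 5.84, 5.35 and 6.99 in rpt2-3a rosettes, against 3.00, 3.67 and 3.55 in Col-0 rosettes, and all 6 root arrays lay between 2.08 and 2.34. AT3G22235 read 7.54, 6.75 and 7.41 in rpt2-3a rosettes and 4.75, 4.98 and 4.58 in Col-0 rosettes, with 3.17, 3.4 and 3.12 in rpt2-3a roots and 2.74, 2.98 and 2.70 in Col-0 roots. Both separated the genotypes completely in rosettes, and both were dim in roots. The rosette rise was 6.29-fold for AT3G48640 (2.65 ± 0.31, limma adjusted p = 0.0012) and 5.51-fold for AT3G22235 (2.46 ± 0.18, adjusted p = 5.6e-05). Their organ differences were -2.66 ± 0.43 (adjusted p = 0.02) and -2.04 ± 0.26 (adjusted p = 0.0041). That of AT3G48640 missed the threshold, at adjusted p of at most 0.058, without Col-0 root replicate 1, 2 or 3, rpt2-3a root replicate 2 or Col-0 rosette replicate 1. AT5G57760, also dim in roots, rose 3.26-fold in rosettes (1.70 ± 0.17, adjusted p = 0.00073), and AT4G39830, of the ascorbate oxidase-like cupredoxins, rose 2.84-fold (1.51 ± 0.17, adjusted p = 0.0011).

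Of the 82 positive organ differences, 42 came with a fall that passed in rosettes alone. AT1G66100, a thionin gene (thionins are small antimicrobial peptides), read 7.95, 7.67 and 8.18 in rpt2-3a rosettes, against 9.54, 9.38 and 9.59 in Col-0 rosettes, and between 1.82 and 2.04 in the 6 root arrays. It fell 2.97-fold in rosettes (-1.57 ± 0.13, limma adjusted p = 0.00011), with an organ difference of 1.62 ± 0.18 (adjusted p = 0.0032). AT4G17470, an alpha/beta-hydrolase gene, read 5.12, 4.5 and 5.45 in rpt2-3a rosettes, against 6.66, 7.02 and 6.99 in Col-0 rosettes (-1.87 ± 0.21, adjusted p = 0.0011). TBL26, of the trichome birefringence-like family of cell wall acetyltransferases, fell by 1.41 ± 0.15 (adjusted p = 0.0011). AT5G24155 fell by 1.46 ± 0.18 (adjusted p = 0.0023) and AT4G13800, a magnesium transporter-like gene, by 1.04 ± 0.14 (adjusted p = 0.0032). These 5 genes were dim in roots of both genotypes.

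AT5G19100 and AT4G29700, dim in neither organ, fell in rosettes and did not pass in roots. AT5G19100, an aspartyl protease gene, read 6.09, 6.09 and 6.24 in rpt2-3a roots and 5.51, 5.96 and 5.85 in Col-0 roots, and 3.71, 3.97 and 3.83 in rpt2-3a rosettes, against 5.05, 5.01 and 5.37 in Col-0 rosettes. The groups did not overlap in either organ, but the root value was small (0.37 ± 0.14, limma adjusted p = 0.44) beside the fall in rosettes (-1.31 ± 0.14, adjusted p = 0.0011). AT4G29700, an alkaline-phosphatase-like gene, fell by 1.04 ± 0.15 in rosettes (adjusted p = 0.0046) and stood at 0.65 ± 0.15 in roots (adjusted p = 0.095). NAI1, the basic helix-loop-helix factor needed to form ER bodies, read 5.44, 5.84 and 5.72 in rpt2-3a roots, against 4.60, 4.82 and 5.15 in Col-0 roots, and 2.88, 2.70 and 2.96 in rpt2-3a rosettes, against 3.28, 3.76 and 3.96 in Col-0 rosettes. It fell in rosettes, where it was dim (-0.82 ± 0.18, adjusted p = 0.035), and stood at 0.81 ± 0.18 in roots (adjusted p = 0.084). It was the 1 gene of 12 measured ER body genes with an organ difference that passed (1.63 ± 0.26, adjusted p = 0.017), and without Col-0 root replicate 2 or rpt2-3a root replicate 2 or 3 its adjusted p was 0.051 to 0.052.

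Few genes passed with opposite changes in the organs. AT1G49450, a WD40-repeat gene, read 6.34, 6.79 and 6.58 in rpt2-3a roots, against 5.51, 6.01 and 5.68 in Col-0 roots, and 5.67, 5.49 and 5.34 in rpt2-3a rosettes, against 6.42, 6.32 and 6.44 in Col-0 rosettes. It was higher in the mutant in roots (0.84 ± 0.15, limma adjusted p = 0.023) and lower in rosettes (-0.89 ± 0.15, adjusted p = 0.009), without overlap in either organ. The organ difference was 1.73 ± 0.21 (adjusted p = 0.0039). AT5G17850, a cation/calcium exchanger gene, went the other way. It read 6.97, 7.02 and 6.84 in rpt2-3a roots, against 7.39, 7.64 and 7.65 in Col-0 roots, and 5.76, 5.68 and 5.80 in rpt2-3a rosettes, against 5.13, 5.37 and 5.33 in Col-0 rosettes. Its root fall (-0.62 ± 0.11, adjusted p = 0.023) and rosette rise (0.47 ± 0.11, adjusted p = 0.045) gave an organ difference of -1.09 ± 0.15 (adjusted p = 0.0099). The third feature with opposite changes, 13403683, has no single gene and was named after its values were seen.

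Several negative organ differences joined a smaller rise in rosettes to a lower value in roots. AT2G44500, of the O-fucosyltransferase family, rose in rosettes (0.84 ± 0.16, limma adjusted p = 0.019) and stood at -0.66 ± 0.16 in roots (adjusted p = 0.13). AT1G02660, a lipase gene, rose in rosettes (0.73 ± 0.14, adjusted p = 0.017) and stood at -0.55 ± 0.14 in roots (adjusted p = 0.14). AT1G11960, of the early-responsive-to-dehydration family, rose in rosettes (0.97 ± 0.16, adjusted p = 0.009) and stood at -0.35 ± 0.16 in roots (adjusted p = 0.59). AT1G15010 and AT5G52050, which encodes the MATE transporter DTX50, passed in neither organ singly. AT1G15010 stood at -1.12 ± 0.26 in roots and 0.92 ± 0.26 in rosettes (organ difference -2.04 ± 0.37, adjusted p = 0.033), and AT5G52050 at -0.81 ± 0.18 and 0.51 ± 0.18 (-1.32 ± 0.26, adjusted p = 0.046). The test was passed in 2 of 12 fits without 1 array for AT1G15010 and in 1 of 12 for AT5G52050.

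**Figure D3:**
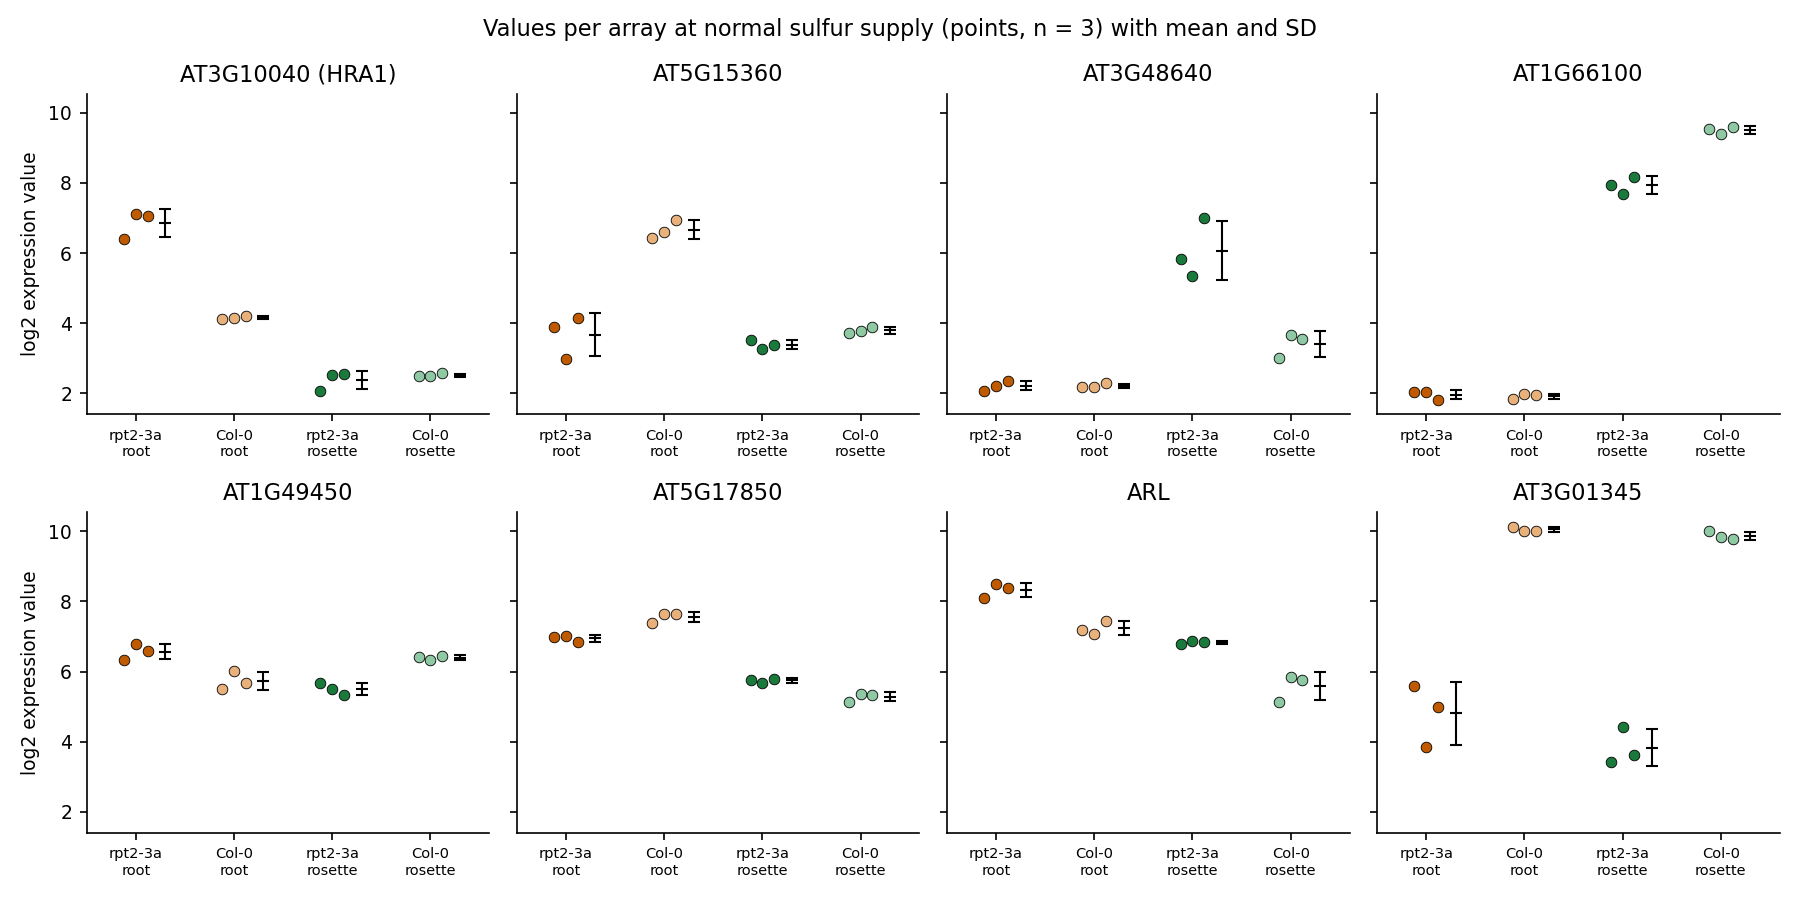
Log2 expression value per array (points, n = 3) with mean and SD (bars) for 8 genes in rpt2-3a roots, Col-0 roots, rpt2-3a rosettes and Col-0 rosettes. AT3G10040 and AT5G15360 separate the genotypes by over 2.5 log2 units in roots and by at most 0.40 in rosettes, AT3G48640 and AT1G66100 separate them in rosettes, AT1G49450 and AT5G17850 change in opposite directions, and ARL and AT3G01345 passed in both organs in the same direction.

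The shared changes included the largest in the table. AT3G01345 read 5.6, 3.84 and 4.98 in rpt2-3a roots, against 10.13, 10.01 and 10 in Col-0 roots, and 3.43, 4.43 and 3.63 in rpt2-3a rosettes, against 10, 9.83 and 9.79 in Col-0 rosettes. It was 37.8-fold lower in mutant roots (-5.24 ± 0.34, limma adjusted p = 1.4e-05) and 66.0-fold lower in mutant rosettes (-6.04 ± 0.34, adjusted p = 4.6e-06). The organ difference, 0.80 with a 95% interval from -0.24 to 1.85, did not pass (adjusted p = 0.6) and leaves room for a difference of over 1. AT1G62310, which encodes a jumonji-C domain protein of the histone demethylase class, read 4.23, 4.51 and 5.00 in rpt2-3a roots, against 6.62, 6.35 and 6.56 in Col-0 roots, and 5.83, 5.62 and 6.29 in rpt2-3a rosettes, against 7.11, 7.33 and 7.33 in Col-0 rosettes. It fell by 1.93 ± 0.20 in roots (adjusted p = 0.00043) and by 1.34 ± 0.20 in rosettes (adjusted p = 0.0045). AT3G23510, a cyclopropane fatty acid synthase gene, fell by 0.57 ± 0.11 in roots (adjusted p = 0.045) and by 0.55 ± 0.11 in rosettes (adjusted p = 0.025). It was dim in rosettes. Of 12 fits without 1 array, its root fall passed in 1 and its rosette fall in 6.

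Among the shared rises was that of ARL (ARGOS-LIKE), which promotes organ growth through cell expansion. It read 8.10, 8.49 and 8.38 in rpt2-3a roots, against 7.19, 7.07 and 7.45 in Col-0 roots, and 6.78, 6.87 and 6.83 in rpt2-3a rosettes, against 5.14, 5.85 and 5.77 in Col-0 rosettes. The rise was 2.12-fold in roots (1.09 ± 0.17, limma adjusted p = 0.013) and 2.36-fold in rosettes (1.24 ± 0.17, adjusted p = 0.0038), and the organ difference of -0.15 had a 95% interval from -0.69 to 0.38. EXO, the other measured organ growth regulator of 8 listed, rose in rosettes (1.52 ± 0.26, adjusted p = 0.011) and stood at -0.34 ± 0.26 in roots, and its organ difference of -1.86 ± 0.37 lay just outside the threshold (adjusted p = 0.052). On the other side of the threshold the last feature inside it, 13520236, had an organ difference of -1 (adjusted p = 0.049).

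The other shared rises were of unequal or small size. AT1G66810, a CCCH zinc finger gene, read 5.35, 5.18 and 4.94 in rpt2-3a roots, against 4.05, 4.11 and 3.94 in Col-0 roots, and 5.88, 6.05 and 5.27 in rpt2-3a rosettes, against 3.56, 3.20 and 3.31 in Col-0 rosettes. It rose 2.18-fold in roots (1.12 ± 0.18, limma adjusted p = 0.013) and 5.19-fold in rosettes (2.38 ± 0.18, adjusted p = 5.6e-05). Its organ difference of -1.25 had a 95% interval from -1.80 to -0.70 before adjustment and did not pass over all features (adjusted p = 0.054), so it cannot be counted as alike in both organs. AT4G19830, of the FKBP-type peptidyl-prolyl isomerases, rose by 0.62 ± 0.11 in roots (adjusted p = 0.028) and 0.71 ± 0.11 in rosettes (adjusted p = 0.0077), and AT1G55450, a methyltransferase-like gene, by 0.62 ± 0.11 (adjusted p = 0.029) and 0.49 ± 0.11 (adjusted p = 0.043). Of 12 fits without 1 array, the rosette rise of AT1G55450 passed in 2 and its root rise in 7. The root rise of AT4G19830 passed in 6 and its rosette rise in 12. For 8 of the 11 shared features the 95% interval of the organ difference lay within 1 log2 unit of 0. The other 4 shared features have no single gene. The count of 11 became 5 and 4 without rpt2-3a root replicates 2 and 3 and 3 and 4 without Col-0 root replicates 1 and 2.

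The other lists were read against all features, of which 0.451% passed the organ difference. Of all features 0.486% passed in roots, and 1.04% rose and 1.05% fell in rosettes. None of 14 measured 26S proteasome subunit genes passed in roots, in rosettes or for the organ difference, with medians of 0.19 in roots, 0.09 in rosettes and 0.07 for the organ difference (largest 0.40, AT4G15165, limma adjusted p = 0.37). Of 11 autophagy genes 1 fell in rosettes, ATG8F (-0.62 ± 0.11, adjusted p = 0.0096), which stood at -0.36 ± 0.11 in roots, and its organ difference did not pass (0.26, adjusted p = 0.57). Of 14 heat shock protein genes AT1G54050, a small heat shock protein gene, fell in rosettes (-1.04 ± 0.13, adjusted p = 0.0023) with an organ difference of 1.02 ± 0.18 (adjusted p = 0.032). None of 10 photosynthesis genes, 14 glutathione transferase genes, 9 sulfur and glucosinolate genes or 20 auxin response genes passed in either organ or for the organ difference.

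Of 7 measured methionine sulfoxide reductase genes, whose enzymes repair oxidised methionine, 2 fell and 1 rose in rosettes (1.05% and 1.04% of all features), and the list's median there was -0.06. The adjacent genes MSRB5 and MSRB6 fell, and MSRB9 rose (0.79 ± 0.15, limma adjusted p = 0.017). MSRB5 read 3.12, 3.14 and 3.06 in rpt2-3a rosettes, against 3.89, 4.07 and 3.90 in Col-0 rosettes, and MSRB6 read 3.83, 3.59 and 3.79 in rpt2-3a rosettes, against 4.81, 4.63 and 5.07 in Col-0 rosettes. Neither gene moved past the test in roots (0.15 ± 0.10 and 0.09 ± 0.12), where MSRB6 was dim, and MSRB5 was dim in rosettes, where its fall was called. Their organ differences, 1.00 ± 0.14 (adjusted p = 0.007) and 1.19 ± 0.17 (adjusted p = 0.0099), were 2 of 7 measured members. That of MSRB9 did not pass (-0.83 ± 0.21, adjusted p = 0.12).

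Of 14 measured TIR-domain genes, which belong to the immune receptor families, 2 rose and 1 fell in rosettes, beside 1.04% and 1.05% of all features. AT5G58120 rose in rosettes (0.75 ± 0.14, limma adjusted p = 0.016) with an organ difference of -1.12 ± 0.20 (adjusted p = 0.032), and AT1G47370 fell (-0.50 ± 0.11, adjusted p = 0.032) with an organ difference of 0.87 ± 0.15 (adjusted p = 0.03). AT1G47370 was dim in both organs. The other TIR-domain gene that rose in rosettes, AT1G72900 (0.93 ± 0.21, adjusted p = 0.035), did not pass the organ difference (-1.23 ± 0.29, adjusted p = 0.098). Of 18 measured defensins and thionins 2 rose and 1 fell in rosettes, and the thionin gene AT1G66100 was the 1 member whose organ difference passed. Of 9 flavonoid and anthocyanin genes 1 fell in rosettes, the flavonol rhamnosyltransferase gene AT1G06000 (-0.83 ± 0.13, adjusted p = 0.0076), with an organ difference of 0.98 ± 0.19 (adjusted p = 0.04). All 9 had an organ difference above 0, and their median was 0.43, beside 0.01 over all features, with a median of -0.39 in rosettes. ORA47, an AP2/ERF factor of jasmonate signalling and 1 of 14 measured rapid wound and elicitor genes, fell in rosettes (-2.04 ± 0.23, adjusted p = 0.0011), where it read 5.80, 5.46 and 4.75 in rpt2-3a and 7.27, 7.55 and 7.30 in Col-0. Its organ difference of 1.59 ± 0.32 lay just outside the threshold (adjusted p = 0.054), against a list median of -0.57.

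Of 33 measured expansins and xyloglucan enzymes, which act on cell walls, none passed the organ difference, and 1 passed in roots and 3 in rosettes (0.486% and 2.09% of all features). XTH16 fell in roots (-0.94 ± 0.16, limma adjusted p = 0.018) and stood at 0.11 ± 0.16 in rosettes, with an organ difference of -1.05 ± 0.23 (adjusted p = 0.069). XTH18 rose in rosettes (0.89 ± 0.20, adjusted p = 0.036) and stood at 0.02 ± 0.20 in roots. In rosettes 2 of the 33 rose and 1 fell, and the median organ difference of the list was -0.03. Of 26 cytochrome P450 genes 2 rose and 1 fell in rosettes, and of 56 UDP-glycosyltransferase genes 1 rose and 3 fell, among them UGT76C1 (-0.62 ± 0.14, adjusted p = 0.032), beside 1.04% of all features higher and 1.05% lower.

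The arrays under sulfur deficiency share none with the normal-supply arrays and gave the same contrast again. There 134 features passed the organ difference (0.469%), 105 positive (0.367%) and 29 negative (0.101%). Of the 129 features called at normal supply, 115 (89.1%) had an organ difference of the same sign under deficiency, beside 51.9% of all features, and 17 passed there with the same sign. Their median in the direction seen at normal supply was 0.40 under deficiency and 1.20 at normal supply. Features chosen for a large value at one supply tend to measure smaller at the other by that choice, so the gap between the medians is no test of the supply. The count of 134 became 38 and 57 without Col-0 root replicates 1 and 3, 49 without rpt2-3a root replicate 2, 44 and 51 without rpt2-3a rosette replicates 1 and 3, and 59 and 55 without Col-0 rosette replicates 2 and 3, all of the deficient arrays.

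The features were also followed by the organ in which they had passed, without a test between these classes. Of the 42 features called in roots alone 41 had the same sign under deficiency and 11 passed, with a median of 0.89. Of the 75 called in rosettes alone 65 had the same sign and 5 passed, with a median of 0.32. The genes that passed under both supplies included AT5G15360 (-2.59 at normal supply and -3.10 under deficiency, limma adjusted p = 3.3e-06 there), AT3G48640 (-2.66 and -2.06, adjusted p = 0.0026), AT3G22235 (-2.04 and -1.77, adjusted p = 0.0018) and AT1G49450 (1.73 and 1.65, adjusted p = 0.0039). AT4G25410 (1.69 and 1.09, adjusted p = 0.025), AT5G57760 (-1.48 and -1.30, adjusted p = 0.004) and the hypoxia core gene AT5G10040 (1.10 and 1.25, adjusted p = 0.0043) passed as well. The other hypoxia core genes called at normal supply did not pass under deficiency. AT3G10040 (HRA1) stood at 1.16 (adjusted p = 0.33), AT3G27220 at 1.27 (adjusted p = 0.063) and AT5G66985 at 0.54 (adjusted p = 0.5). The root means of HRA1 were 7.83 in rpt2-3a and 6.57 in Col-0 under deficiency, against 6.85 and 4.16 at normal supply. Other named genes kept little of their organ difference under deficiency, and none of those that follow passed there. AT4G17470 stood at -0.26 and MSRB6 at -0.13, both of the opposite sign. The rosette difference of AT4G17470 was 0.04 there, against -1.87 at normal supply. TBL26 stood at 0.09, AT4G29700 at 0.15, AT2G44500 at -0.11 and AT1G02660 at -0.10. The peroxidase gene AT1G49570, which missed the threshold at normal supply, passed under deficiency (1.71, adjusted p = 0.00061).

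**Figure D4:**
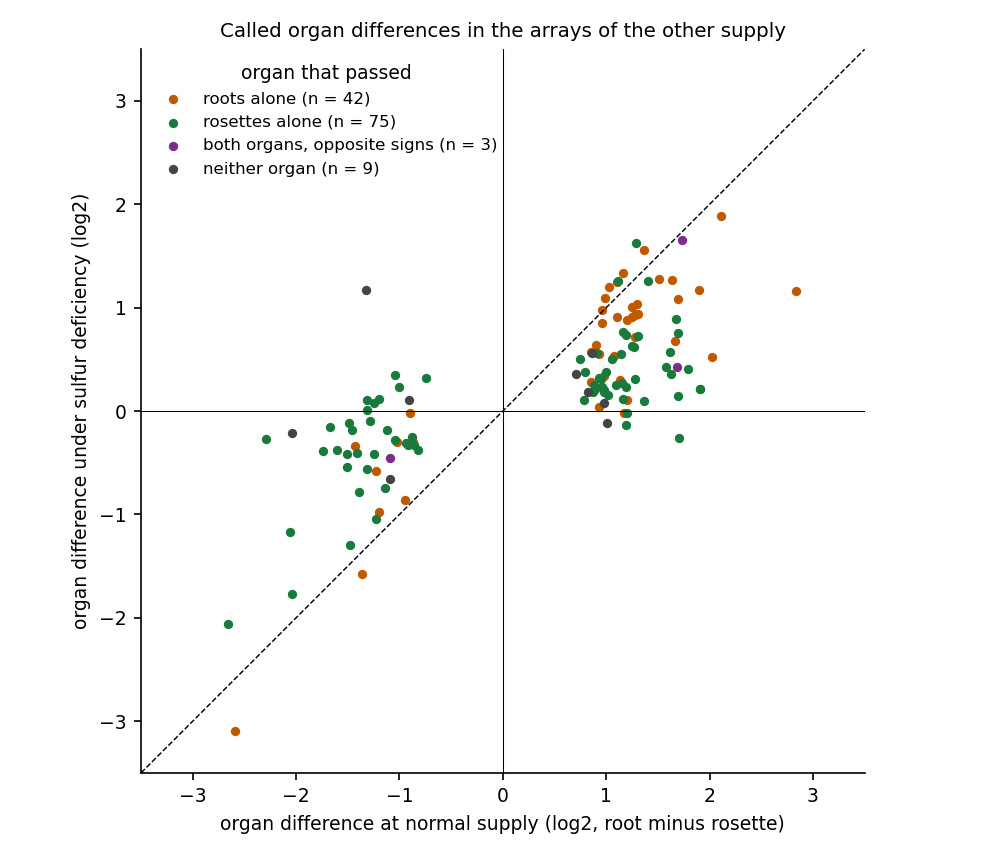
Organ difference (log2, root difference minus rosette difference) under sulfur deficiency (vertical axis) against normal supply (horizontal axis) for the 129 features called at normal supply, coloured by the organ in which they passed. Most points (115 of 129) lie in the upper right or lower left, and most lie closer to 0 on the vertical axis than on the horizontal axis.

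A reversal was called for 1 feature. AT5G52050 had an organ difference of -1.32 at normal supply and of 1.17 under deficiency (limma adjusted p = 0.045), each close to the threshold. Under deficiency its genotype difference was 0.28 in roots and -0.89 in rosettes. Of the 11 shared features 9 kept the same sign in both organs under deficiency, and 5 passed in both. Over all features 1.05% passed in roots under deficiency (0.703% higher and 0.343% lower), and 0.843% in rosettes (0.273% higher and 0.57% lower). AT3G01345 stood at -6.05 in roots and -5.46 in rosettes under deficiency, AT1G62310 at -1.77 and -1.02, and AT1G66810 at 1.07 and 2.37, all past the test. The organ difference of AT1G66810 passed under deficiency (-1.30, limma adjusted p = 0.037), so its rise was unequal there. ARL passed in roots (0.96, adjusted p = 0.0062) and lay just outside in rosettes (0.67, adjusted p = 0.053). AT4G19830 passed there in rosettes (1.05, limma adjusted p = 0.0071) and not in roots (0.54, adjusted p = 0.17). AT1G55450 passed in roots (0.53, adjusted p = 0.033) and stood at -0.09 in rosettes (adjusted p = 0.85). AT3G23510 passed in neither organ (-0.33 in roots, adjusted p = 0.74, and -0.23 in rosettes, adjusted p = 0.84). Under deficiency 23 features passed in both organs with the same sign.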

How the data were processed

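Total RNA was labelled with an Affymetrix WT kit, per the labels' protocols. The deposited series table holds 1 value per feature and array, taken here to be on the log2 scale. Transcriptome Analysis Console is named in the submitters' processing notes. How values were summarised, normalized and centred, the log base, the build, scan dates and batches are not given in the sources used. Array medians ran from 4.47 to 4.53 in roots and from 4.06 to 4.14 in rosettes, and arrays of a group correlated at r of at least 0.989. An array gives no count depth, so the number of arrays limits the precision, and p-values measure the spread between these arrays. The platform annotation gave 16746 features exactly 1 gene, 758 several and 11079 none, and 16601 matched RefSeq's TAIR10.1 table, which supplied symbols. Of the 129 features, 2 have identical values in all arrays, and both were counted, so the calls hold 128 distinct sets of values.

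The deposited log2 values entered a linear model (limma 3.58.1, R 4.3.3) with 1 mean for each of the 4 groups, 8 residual degrees of freedom, no filter, and two-sided Benjamini-Hochberg adjustment over 28583 features. Errors are standard errors of the fit. Recovery of the organ difference was measured on simulated data over 28583 features, with independent normal noise of each feature's own spread. Changes were put into rpt2-3a roots alone, in 50 features per size, with no other genotype effect. Of these 8% were recovered at 0.5 log2 units, 56% at 1 and 94% at 2. The noise of the real arrays may differ. Same-numbered arrays deviated together with r of -0.0714 to 0.103, and 1 of 12 pairs exceeded 0.1. Between roots and rosettes of the same genotype r was positive for each number (0.0305, 0.103 and 0.0212 in rpt2-3a, 0.0951, 0.062 and 0.061 in Col-0). Differently numbered arrays gave -0.0773 to 0.0505 in rpt2-3a and -0.0656 to 0.00349 in Col-0. Whether replicate numbers pair the organs was not tested, and the main fit used no pairing.

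Among features with 1 gene, the named ones were the 12 highest and 12 lowest organ differences past the test, up to 10 shared in each direction, up to 8 opposite, up to 3 per list by smallest p, and 2 features without a gene at each end. Members, lists and tests were chosen with earlier results of these data known, and lists were extended after results had been seen. A listed locus counted as measured through its brightest feature with exactly 1 gene. Lists are described by counts and medians, with no test of their own. The alternatives covered scaling, filters, weights, arrays in the fit, the replicate block and leaving out each array.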

Additional observations from a re-analysis of the deposited data

Results flagged for a closer look

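Each gene below had a genotype effect that differed between roots and rosettes at normal supply by the limma test of the organ difference, given as log2 root minus rosette. Positive values were those of AT3G10040 (2.83), AT1G49450 (1.73), AT4G17470 (1.70), AT4G25410 (1.69), AT4G29700 (1.69), AT5G19100 (1.67), NAI1 (1.63), AT1G66100 (1.62), AT3G27220 (1.51), AT5G24155 (1.40), TBL26 (1.37) and AT4G13800 (1.30). Smaller positive values among listed genes were those of MSRB6 (1.19), AT5G66985 (1.08), AT1G54050 (1.02), MSRB5 (1.00), AT1G06000 (0.98) and AT1G47370 (0.87). The second, dimmer feature of AT1G06000 did not pass. Negative values were those of AT3G48640 (-2.66), AT5G15360 (-2.59), AT3G22235 (-2.04), AT1G15010 (-2.04), AT2G44500 (-1.49), AT5G57760 (-1.48), AT3G46800 (-1.43), AT5G52050 (-1.32), AT1G11960 (-1.31), AT1G02660 (-1.29), AT4G39830 (-1.24), AT2G17660 (-1.23), AT5G58120 (-1.12) and AT5G17850 (-1.09).

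Features without a gene name also differed between the organs. Feature 13416753 had an organ difference of 2.11 and 13467050 of 2.02, both with higher values in rpt2-3a roots. Feature 13343195 had an organ difference of -2.29 and 13517784 of -2.06, both with higher values in rpt2-3a rosettes. Groups of 3 arrays were too small for a test of single outlying arrays, and the fits without each array are given below.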

How the results depend on the processing

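Over all settings 2129 values of named genes were recomputed, and 0 changed sign, 228 fell out of the threshold, 21 came inside it and 1880 kept their side. Of the 24 genes named at the ends of the organ difference, 14 passed in all 12 fits without 1 array (AT3G10040, AT1G49450, AT4G25410, AT4G29700, AT5G19100, AT1G66100, AT3G27220, AT4G13800, AT5G15360, AT3G22235, AT2G44500, AT3G46800, AT1G02660 and TBL26). The other 10 passed in 1 (AT5G52050), 2 (AT1G15010, AT4G39830), 3 (AT5G24155, AT2G17660), 4 (AT4G17470), 6 (AT1G11960), 7 (AT3G48640, AT5G57760) or 9 (NAI1) of the 12. Of the listed genes, MSRB5 and MSRB6 passed in all 12, AT5G66985 in 5, AT1G47370 in 4, AT1G54050 and AT5G58120 in 3 and AT1G06000 in 1. Of 14 results of shared genes in 1 organ, 7 passed in all 12. The root rises of AT1G66810, ARL, AT1G55450 and AT4G19830 passed in 9, 8, 7 and 6 of the 12. The rosette rise of AT1G55450 passed in 2, and the fall of AT3G23510 in 1 for roots and 6 for rosettes. Without 1 array the count of organ differences ranged from 52 to 145, of root differences from 67 to 161, of rosette differences from 200 to 682, of shared features from 3 to 13, and of organ differences under deficiency from 38 to 134. With all 24 arrays in the fit 377 organ, 236 root, 965 rosette and 24 shared differences passed. With a trend and robust variance 279 organ and 23 shared differences passed. Testing only features with 1 gene, which tests fewer features, left 53 organ, 54 root, 298 rosette and 6 shared differences. In the main fit the calls with exactly 1 gene were 63 organ, 63 root, 317 rosette and 7 shared differences. Keeping features above the lower quartile in both organs left 75 root differences. A fit of each organ's 6 arrays, with fewer residual degrees of freedom, left 76 root, 101 rosette and 5 shared differences. Why the counts moved between settings was not tested.

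What arrays of the same replicate number share is not known. With the replicate block over the 12 arrays 97 organ differences, 129 root differences and 543 rosette differences passed, and with a replicate block within genotype 88 organ differences. With a replicate block within each organ 35 root, 104 rosette and 4 shared differences passed. The share of organ differences with the same sign under deficiency ranged from 79.6% to 92.5% over these settings and from 81.5% to 96.6% without 1 array. Values are limited by 3 arrays per group, an unknown normalization, no detection calls and dim levels in 1 organ for many of the called genes.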
